A study of Mus musculus with 16 samples.

Results

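The genes described here are 32 markers of macrophages and other myeloid cells in the embryonic mouse gonad, taken from a named list and read from the best-measured probe of each gene. Of the 32 genes, 31 have a probe named to them, among 19532 genes on the array, and all 31 were among the 16581 genes tested. Cd68, a lysosomal glycoprotein of macrophages, has no probe named to it and was not analysed here. A gene was tested if it lay above the detection limit in at least 4 of the 16 samples, and Spi1 met this through female samples only. The limit meant is the highest of the sample limits for a probe, to which all lower values were raised. A value at it can still lie above its own sample's limit.

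Gene expression was measured in whole gonads on Agilent arrays with the dye Cy3. Each of the 16 samples stands for 1 combination of sex, genotype (Nanos3+/- or Nanos3-/-) and age, the ages being embryonic days 12.5, 13.5, 14.5 and 15.5 (E12.5 to E15.5). Primordial germ cells depend on the RNA-binding protein NANOS3, and mice without it lose these cells early. The Nanos3+/- gonads used as controls also carry a mutant allele, and wild-type gonads were not analysed here. Each sample combines replicates 1 and 2 according to its title, and no label says how many embryos were pooled. The p-values below therefore measure the spread between days and samples, not between animals.

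Macrophages of the fetal gonad derive from the yolk sac and from later waves of blood-forming cells, and in the mouse testis they help to shape vessels and clear dying cells. Their survival depends on the receptor encoded by Csf1r, and their gene programme on the transcription factor PU.1, encoded by Spi1. Through receptors, complement and lysosomal proteases they bind, engulf and digest debris, and several of the genes below are shared with monocytes, granulocytes or platelets.

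PU.1 is known to bind sites with a GGAA core, so the promoters of the listed genes were searched for the letters GAGGAAGT on both strands. The RefSeq promoter table of build GRCm38.p6 gives windows of 300 bases, from 250 before to 50 after a gene's start, and 30 windows match 24 of the 32 genes. The letters occur in 5 of these 30 windows, or 16.7%, and in 1052 of all 32851 windows, or 3.2%. The shorter core GAGGAA, which every match of the longer motif also holds, occurs in 19 of the 30 windows (63.3%) and in 28.3% of all windows. The 5 windows with the longer motif are shown because their genes move in different ways across the samples, with Cd53, C1qc, Ctss and F13a1 rising and Pf4 falling with embryonic day. Capitals mark the motif, read 5′ to 3′ on the gene's strand, in either orientation.
Cd53 (chr3:106790100-106790399, minus strand): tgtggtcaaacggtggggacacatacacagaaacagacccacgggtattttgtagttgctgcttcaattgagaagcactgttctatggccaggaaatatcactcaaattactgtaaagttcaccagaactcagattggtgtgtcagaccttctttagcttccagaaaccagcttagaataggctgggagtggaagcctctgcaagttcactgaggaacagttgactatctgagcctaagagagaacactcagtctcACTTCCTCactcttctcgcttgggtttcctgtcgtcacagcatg
C1qc (chr4:136892865-136893164, minus strand): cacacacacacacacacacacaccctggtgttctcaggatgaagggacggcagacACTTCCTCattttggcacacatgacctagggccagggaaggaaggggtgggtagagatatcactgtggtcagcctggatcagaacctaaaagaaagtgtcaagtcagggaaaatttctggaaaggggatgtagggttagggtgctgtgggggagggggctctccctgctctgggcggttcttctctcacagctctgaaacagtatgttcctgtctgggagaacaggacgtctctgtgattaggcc
Ctss (chr3:95526536-95526835, plus strand): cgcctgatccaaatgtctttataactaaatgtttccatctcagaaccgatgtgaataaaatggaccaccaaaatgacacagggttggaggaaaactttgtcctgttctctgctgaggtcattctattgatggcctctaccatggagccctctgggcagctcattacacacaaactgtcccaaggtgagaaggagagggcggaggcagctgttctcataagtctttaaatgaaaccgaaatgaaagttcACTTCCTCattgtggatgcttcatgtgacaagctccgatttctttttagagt
Pf4 (chr5:90772185-90772484, plus strand): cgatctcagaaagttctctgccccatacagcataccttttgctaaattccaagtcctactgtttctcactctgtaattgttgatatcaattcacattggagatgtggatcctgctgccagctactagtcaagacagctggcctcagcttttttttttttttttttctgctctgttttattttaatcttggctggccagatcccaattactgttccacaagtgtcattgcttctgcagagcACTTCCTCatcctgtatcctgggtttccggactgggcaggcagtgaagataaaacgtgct
F13a1 (chr13:37049164-37049463, minus strand): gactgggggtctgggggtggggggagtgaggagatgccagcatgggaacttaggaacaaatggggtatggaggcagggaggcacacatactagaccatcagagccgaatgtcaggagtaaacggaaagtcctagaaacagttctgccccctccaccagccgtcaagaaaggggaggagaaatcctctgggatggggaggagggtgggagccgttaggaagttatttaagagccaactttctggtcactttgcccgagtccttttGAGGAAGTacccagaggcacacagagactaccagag
A match is a description of the letters and does not show that a factor binds there.

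Values are given as scaled ratios, the authors' linear ratio of a probe's signal to its typical signal after the arrays were brought to a common scale. They compare samples within a gene and say nothing of levels between genes. Where 4 values of a group follow each other, they run from the youngest embryonic day to the oldest. Differences are on the log2 scale with their standard error (SE), over 4 same-day pairs of samples. The SE rests on a single estimate of spread per gene, shared by all 16 samples and moderated by limma. It does not measure the spread of the 4 pairs alone, and a gene's knockout differences in females and males have the same SE. A gene was called at an adjusted p under 0.05 in limma over all genes tested.

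The sample labels were checked first. The description field of all 8 female samples says male, whereas their titles and characteristics say female. Xist, the RNA of the inactive X chromosome, was lower in males by -7.67 ± 0.89 among heterozygotes and by -8.37 ± 0.89 among knockouts, and the Y-linked Kdm5d was higher by 5.52 ± 0.42 and 5.76 ± 0.42 (log2, adjusted p = 5.1e-05 and 2.99e-05). Markers of Sertoli cells were higher in males for 9 of 10 genes and those of pre-granulosa cells lower for 8 of 8, in either genotype. The targeted gene Nanos3 had scaled ratios of 3.23, 11.3, 7.91 and 1.89 in male heterozygotes and 0.968, 1.02, 0.756 and 0.613 in male knockouts, lower by -2.55 ± 0.41 with no overlap between the groups (adjusted p = 0.00363). In females it was 2.04, 1.21, 0.609 and 0.568 in heterozygotes and 0.713, 1.11, 0.708 and 0.813 in knockouts, which overlapped (-0.23 ± 0.41, adjusted p = 0.709). Germ cell markers fell in female knockouts for 9 of 10 genes and in male knockouts for 10 of 10, with median log2 differences of -7.34 and -7.22.

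The first question was whether the myeloid genes differ in gonads that lack germ cells. In female knockouts 13 of 31 were called higher than in heterozygotes, where 20.9% of all genes tested were, and none was called lower by limma, against 12.9% of all genes. In male knockouts 9 of 31 were called higher, against 21.7% of all genes, and none lower, against 12.6%. At an unadjusted p under 0.05 none was lower in females, and 1, Coro1a, in males (adjusted p = 0.0785). Fcer1g, Lcp1, Pf4 and Ptprc were called higher in both sexes, 9 genes in females alone, 5 in males alone and 13 in neither, which is 12.9%, 29%, 16.1% and 41.9% of the 31, against 13.2%, 7.66%, 8.46% and 70.6% of all genes. The shared genes were 30.8% of the female calls and 44.4% of the male calls, against 63.3% and 61% over all genes. A call in one sex alone does not show a difference between the sexes. The median of the 31 genes was 0.42 in females and 0.37 in males, and that of all genes 0.11 and 0.12 (log2). The members lay above the median of all genes by 0.32 and 0.25, and by 0.34 and 0.24 with the arrays scaled as deposited. That scaling moved the median of all genes to 0.00 in females and 0.01 in males.

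The number of calls depended on the scaling and on single days. With the arrays as deposited, 3 of the 31 genes were called higher in females and none in males, 2.92% and 1.94% of all genes were, and the share of calls that were higher fell from 61.8% to 21.0% in females and from 63.3% to 16.6% in males. Without E13.5 the counts were 4 in females and 0 in males, against 4.38% and 7.79% of all genes. They were 6 and 0 without E14.5 (5.85% and 4.64% of all genes), and 12 and 3 without E15.5 (19.4% and 15.4%). In a fit with no term for the day none was called in either sex (1.44% and 0.923% of all genes were higher). Array weights gave 15 genes higher and 1 lower in males, against 25.4% and 14.7% of all genes.

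**Figure D1:**
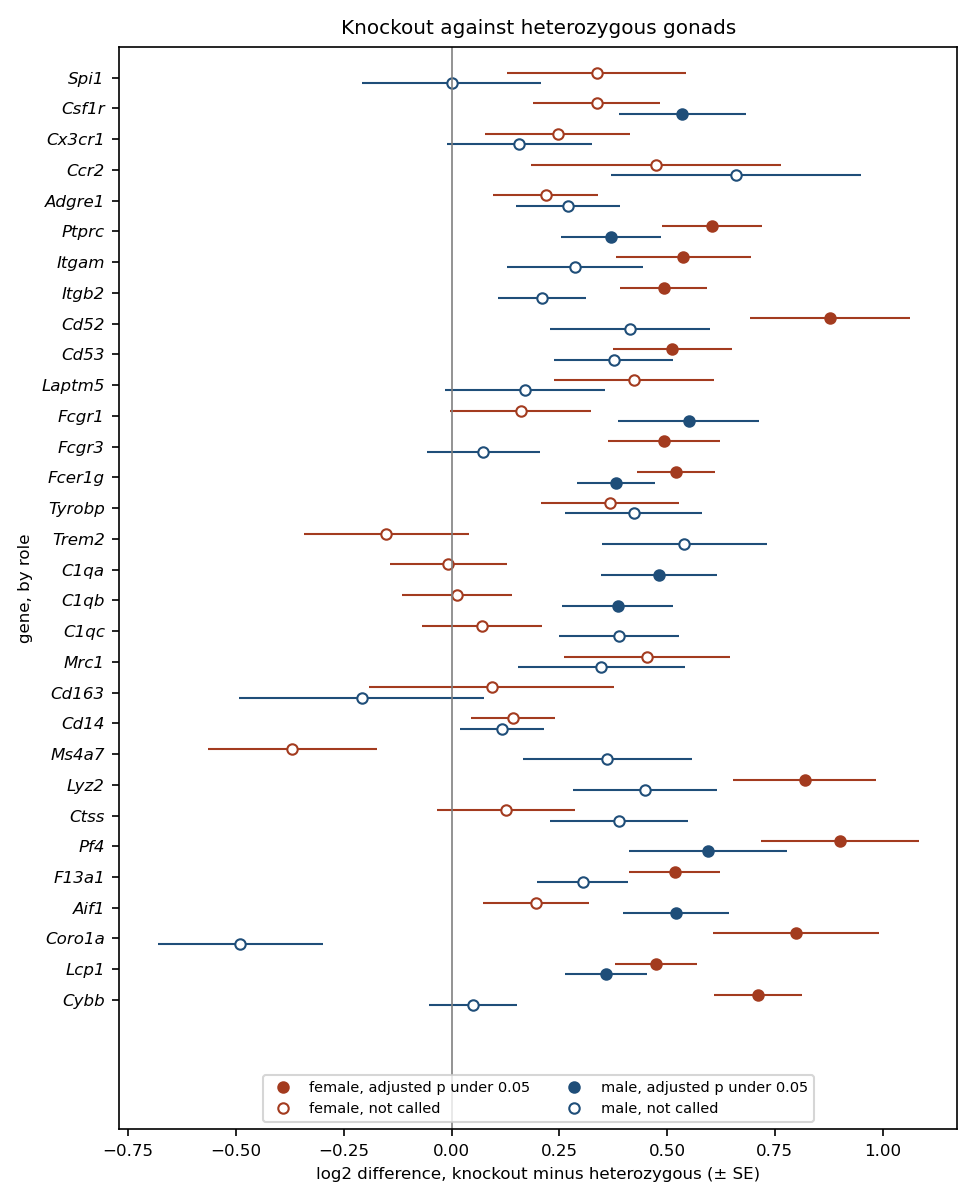
Log2 difference between knockout and heterozygous gonads for the 31 genes, ordered by role, in females and males. Points are means over 4 same-day pairs, and filled points have an adjusted p under 0.05. Bars are ± SE, from a spread per gene shared by all 16 samples. In each sex 28 of the 31 points lie above 0, Coro1a lies on opposite sides, Ms4a7 lies farthest below 0 in females, and Trem2 and the C1q genes lie near or below 0 there.

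Whether the knockout effect differed between the sexes was tested directly, as the difference male minus female. None of the 31 genes was called, against 0.874% of all genes in either direction, and 5 had an unadjusted p under 0.05. They were Coro1a (-1.29 ± 0.27, adjusted p = 0.0735), Cybb (-0.66 ± 0.14, 0.0839), Ms4a7 (0.73 ± 0.28, 0.203), Trem2 (0.69 ± 0.27, 0.215) and C1qa (0.49 ± 0.19, 0.214). Array weights called 2 genes here (3.05% of all genes higher and 2.33% lower), and the fit without E12.5 called 1 (2.91% and 3.87%).

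Between the sexes few of the genes differed. Among heterozygotes, Coro1a was higher in males (1 of 31, against 11.7% of all genes) and Fcgr3, C1qc and Ms4a7 were lower (3 of 31, against 12.1%). Among knockouts limma called none higher (8.99% of all genes), and Fcgr3 and Ptprc were lower (2 of 31, against 9.05%), with 5 genes at an unadjusted p under 0.05 in either direction. The sex comparisons use the same samples as the knockout comparisons. The median of the 31 genes was -0.29 in heterozygotes and -0.15 in knockouts, and that of all genes 0.04 and 0.03 (log2, male minus female). With the arrays as deposited 1 gene was lower in each genotype, against 8.25% of all genes in heterozygotes and 6.41% in knockouts. Without E14.5 or E15.5 no gene was called in heterozygotes, against 4.55% and 6% of all genes called lower. Without E13.5 Coro1a was not called, and without E12.5 the lower count was 5, against 15% of all genes. In knockouts the lower count was 1 without E13.5, E14.5 or E15.5, against 5.37%, 4.24% and 5.4% of all genes.

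Many of the genes changed with embryonic day. Averaged over the 4 groups, 16 of 31 rose, against 21.8% of all genes, and Pf4, Cx3cr1 and Laptm5 fell, against 14.2%. Markers of granulocytes and mast cells rose with day as well, 6 of 16 tested and none falling, led by Camp (1.32 ± 0.22), Cma1 (1.10 ± 0.13) and S100a9 (1.03 ± 0.25 log2 per day), and their part in the rise of the listed genes was not tested. The median slope was 0.18 for the 31 genes and 0.03 for all genes (log2 per day). Within female heterozygotes 5 genes rose and none fell (6.44% and 3.33% of all genes), and within female knockouts limma called none in either direction (2.33% and 1.03%), with 11 at an unadjusted p under 0.05. Within male heterozygotes 6 rose and 1 fell (10.7% and 5.82%), and within male knockouts 7 rose and 1 fell (3.29% and 2.53%). No gene was called for a difference in slope between males and females (6.51% of all genes); 3 had an unadjusted p under 0.05. Without E15.5 the rising count fell from 16 to 2 and the rising share of all genes from 21.8% to 6.82%. Without E12.5 no gene was called falling, against 7.19% of all genes. With the arrays as deposited 18 rose and 1 fell, against 30.3% and 7.74% of all genes. Over all genes the rising share of calls moved from 60.5% to 79.7%. Within groups the rising counts were 0 to 2 in female heterozygotes when any day was left out, against 0.133% to 4.87% of all genes. They were 0 without E15.5 in either male group, where 1.35% of all genes rose in heterozygotes and 0% in knockouts. With array weights 14 rose in female knockouts, against 17.6% of all genes.

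**Figure D2:**
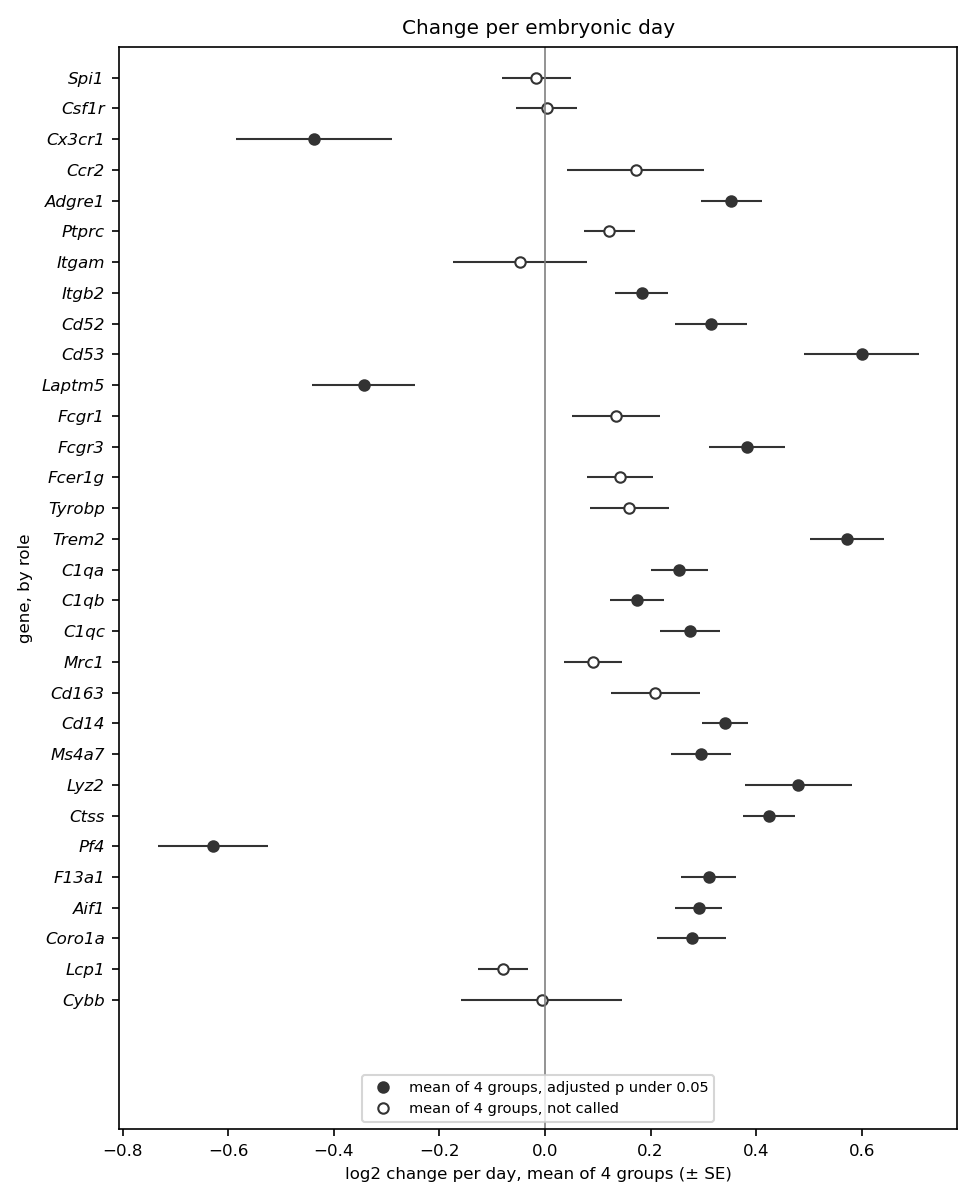
Log2 change per embryonic day of the 31 genes, averaged over the 4 groups. Points are estimates, bars are ± SE, and filled points have an adjusted p under 0.05. Trem2 and Cd53 lie farthest to the right and Pf4 farthest to the left.

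Csf1r and Spi1 regulate the lineage. Csf1r encodes the receptor for the macrophage growth factors CSF1 and IL-34. Its scaled ratio was 0.704, 0.776, 0.622 and 0.844 in male heterozygotes and 1.02, 1.2, 0.888 and 1.17 in male knockouts, which did not overlap (0.54 ± 0.15, adjusted p = 0.0235). In females it was 0.761, 1.04, 0.928 and 1.04 in heterozygotes and 1.4, 1.44, 0.842 and 1.14 in knockouts, higher on 3 of 4 days and lower on E14.5 (0.34 ± 0.15, adjusted p = 0.11). Its slope was not called (0.00 ± 0.06 per day, adjusted p = 0.973). Spi1 was at the detection limit in 11 of 16 samples, including all 8 male samples, and lay above it in female heterozygotes at E14.5 and in all 4 female knockouts.

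Cx3cr1 and Ccr2 are chemokine receptors, the first typical of tissue macrophages and the second of monocytes that enter tissue from blood. Cx3cr1 was 0.806, 1.8, 0.926 and 0.897 in female heterozygotes, 1.19, 2.58, 0.798 and 0.972 in female knockouts, 1.66, 1.41, 0.37 and 0.607 in male heterozygotes and 1.87, 2.15, 0.405 and 0.501 in male knockouts. The 2 earlier days were high and the 2 later days low in males, and E13.5 was the highest female day. The slope over the groups was -0.44 ± 0.15 per day (adjusted p = 0.039), while a second Cx3cr1 probe gave -0.04, so the fall rests on the probe used. Ccr2 was at the limit in 5 samples, 3 of them female heterozygotes. It was 0.874, 1.41, 0.909 and 2.54 in male heterozygotes and 0.993, 3.06, 2.01 and 2.9 in male knockouts, and its E13.5 value in female knockouts stood at 2.77 against 0.942 in female heterozygotes. Neither knockout difference was called (0.47 ± 0.29 in females and 0.66 ± 0.29 in males).

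**Figure D3:**
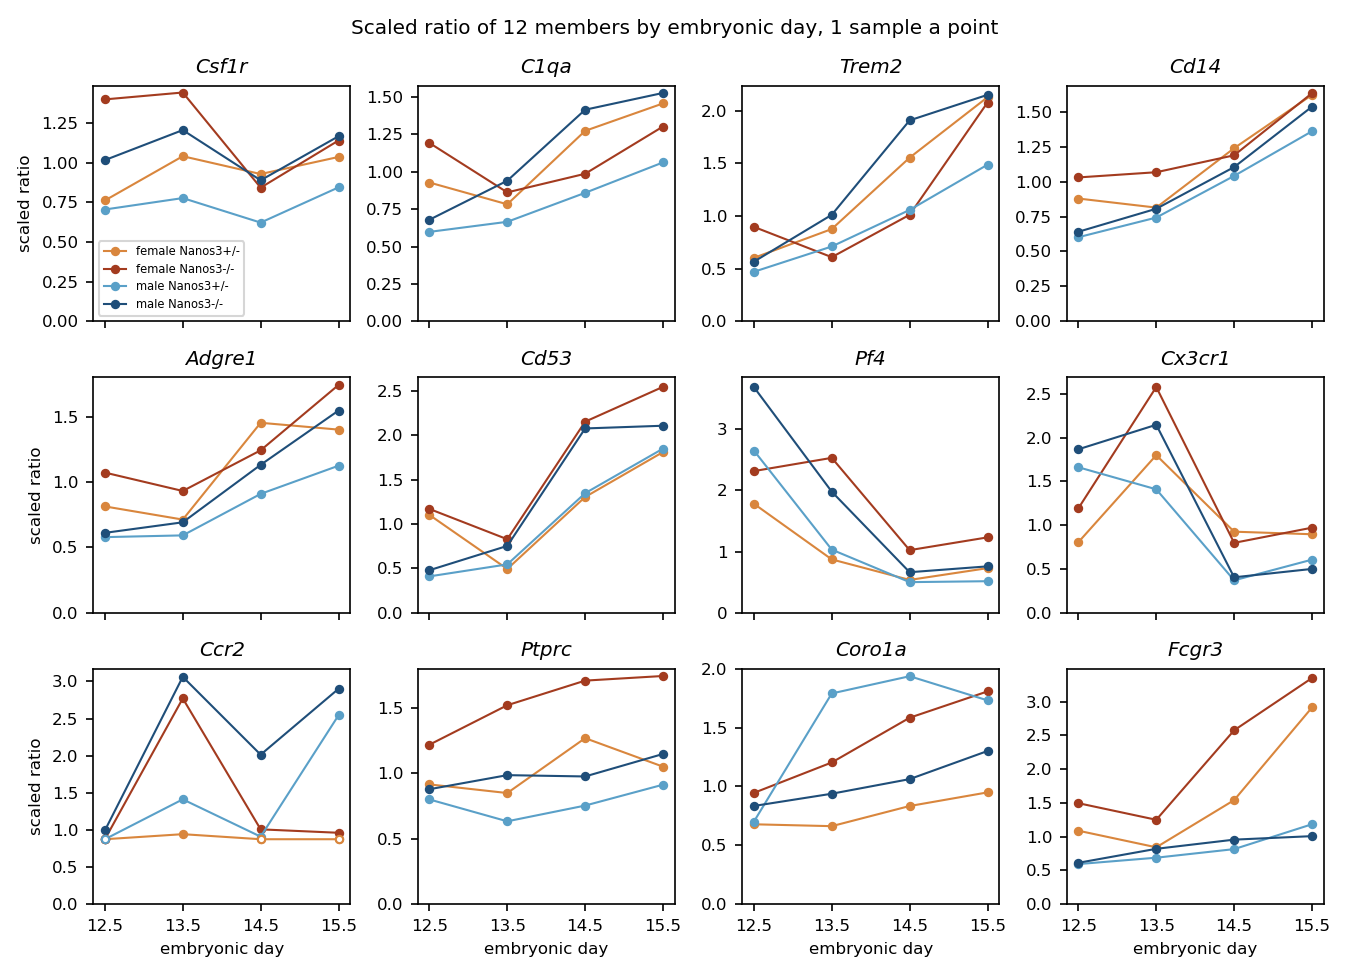
Scaled ratio (linear, against the probe's typical signal) of 12 genes by embryonic day in the 4 groups, with 1 sample a point and open points at the detection limit. Trem2, Cd14 and Cd53 end higher than they start in every group, Pf4 ends lower, and Ccr2 peaks on E13.5 in the knockouts.

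Among surface and pan-leukocyte genes, 5 of 7 were higher in female knockouts (20.9% of all genes) and 1 in male knockouts (21.7% of all genes). Ptprc encodes CD45, the phosphatase on all white blood cells. Its scaled ratio was 0.913, 0.848, 1.27 and 1.05 in female heterozygotes, 1.22, 1.52, 1.71 and 1.74 in female knockouts, 0.799, 0.632, 0.752 and 0.911 in male heterozygotes and 0.877, 0.984, 0.974 and 1.15 in male knockouts. It was higher in the knockout on all 4 days in both sexes (0.60 ± 0.12, 1.52-fold, adjusted p = 0.00655 in females and 0.37 ± 0.12, 0.0382 in males). Female knockouts also exceeded male knockouts on each day with no overlap (-0.63 ± 0.15 male minus female, adjusted p = 0.0164). Averaged over its 4 probes, 3 of which lie at the limit in 11 or more samples, the Ptprc difference shrank to 0.20 in females.

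Cd52, a small surface glycoprotein of white blood cells, had scaled ratios of 0.633, 0.722, 1.05 and 0.847 in female heterozygotes and 0.995, 1.39, 1.77 and 1.89 in female knockouts (0.88 ± 0.19, 1.84-fold, adjusted p = 0.00902). The knockout sample was the higher on every day. Itgam and Itgb2 encode the chains of the complement receptor CR3, and were higher in female knockouts by 0.54 ± 0.16 and 0.49 ± 0.10 (adjusted p = 0.0295 and 0.00844). In males the differences were 0.29 ± 0.16 and 0.21 ± 0.10 and were not called.

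Adgre1 and Cd53 rose with day. Adgre1 encodes F4/80, the classic mouse macrophage antigen, and was 0.814, 0.713, 1.45 and 1.4 in female heterozygotes, 1.07, 0.932, 1.24 and 1.74 in female knockouts, 0.579, 0.592, 0.91 and 1.13 in male heterozygotes and 0.612, 0.692, 1.13 and 1.55 in male knockouts. The late days were above the early days in all groups (0.35 ± 0.06 per day, adjusted p = 0.00116), and the knockout differences of 0.22 ± 0.12 and 0.27 ± 0.12 were not called. Cd53, a tetraspanin of white blood cells, was 0.409, 0.544, 1.35 and 1.85 in male heterozygotes and 0.479, 0.752, 2.08 and 2.11 in male knockouts, and rose by 0.60 ± 0.11 per day over the groups (adjusted p = 0.00209). It was also higher in female knockouts (0.51 ± 0.14). Laptm5, a lysosomal protein of blood cells, went the other way (-0.34 ± 0.10 per day, adjusted p = 0.0194).

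The Fc receptors and their adaptors turn antibody binding into engulfment. Fcer1g, the shared signalling chain of Fc receptors, was 0.598, 0.914, 0.722 and 0.954 in female heterozygotes and 0.871, 1.36, 0.952 and 1.41 in female knockouts, and 0.805, 0.904, 0.811 and 1.17 and 0.988, 1.4, 1.04 and 1.38 in males. All 8 same-day pairs were higher in the knockout (0.52 ± 0.09, adjusted p = 0.00447 in females, and 0.38 ± 0.09, 0.0135 in males). Fcgr1, the high-affinity receptor, was called in males (0.55 ± 0.16, adjusted p = 0.031) and gave 0.16 ± 0.16 in females. Tyrobp, the adaptor DAP12, differed by 0.37 ± 0.16 and 0.42 ± 0.16 and was not called.

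Fcgr3, a low-affinity Fc receptor, was lower in males. Its scaled ratio was 1.09, 0.841, 1.54 and 2.91 in female heterozygotes, 0.593, 0.687, 0.814 and 1.18 in male heterozygotes, 1.5, 1.25, 2.58 and 3.35 in female knockouts and 0.612, 0.819, 0.955 and 1.01 in male knockouts. Male knockouts lay below all female knockouts (-1.27 ± 0.23, 2.4-fold lower, adjusted p = 0.00461), and male heterozygotes below females on every day (-0.85 ± 0.23, adjusted p = 0.0263). A second probe of Fcgr3 gave smaller sex differences of -0.06 in heterozygotes and -0.30 in knockouts. The heterozygote difference therefore rests on the probe used, and the size of the knockout difference depends on it. The mean Fcgr3 slope was 0.38 per day on the probe used and 0.01 on the second, so its rise depends on the probe as well. Trem2, a lipid receptor that signals through DAP12, was 0.602, 0.876, 1.55 and 2.13, 0.896, 0.609, 1.01 and 2.08, 0.47, 0.71, 1.06 and 1.49 and 0.566, 1.01, 1.91 and 2.15 in female heterozygotes, female knockouts, male heterozygotes and male knockouts. Each group ended higher than it began, and the gene rose by 0.57 ± 0.07 per day over the groups (adjusted p = 0.000264), next to Cd53 among the listed genes.

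The genes C1qa, C1qb and C1qc encode the chains of the complement starter C1q, made largely by macrophages. C1qa was 0.598, 0.666, 0.86 and 1.06 in male heterozygotes and 0.68, 0.941, 1.42 and 1.53 in male knockouts, higher on all 4 days (0.48 ± 0.14, 1.4-fold, adjusted p = 0.0255). In females it was 0.929, 0.783, 1.27 and 1.46 and 1.19, 0.863, 0.987 and 1.3, higher on 2 days and lower on 2 (-0.01 ± 0.14, 95% interval -0.32 to 0.30). C1qb was also called in males (0.39 ± 0.13, adjusted p = 0.0471) and C1qc gave 0.39 ± 0.14 (adjusted p = 0.0597). All 3 rose with day, by 0.17 to 0.27 per day. Across the 16 samples their pairwise correlations of log2 ratios were 0.88 to 0.94, and the median over all 465 pairs of listed genes was 0.33. The genes most like C1qa were Aif1 (0.96), C1qb (0.93) and Adgre1 (0.90), over the same 16 samples, which share arrays, day and genotype.

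Among scavenger and pattern receptors, none of 4 was called for the knockout in either sex. Mrc1, the mannose receptor, was 0.977, 0.764, 1.07 and 1.68 in female heterozygotes and 1.78, 1.54, 1.22 and 1.42 in female knockouts, well above at E12.5 and E13.5 and lower at E15.5 (0.45 ± 0.19, adjusted p = 0.101). In males it was 0.725, 0.67, 0.884 and 0.907 and 0.988, 0.91, 0.992 and 1.14, higher on every day without overlap (0.35 ± 0.19, adjusted p = 0.193). Cd14, the co-receptor for bacterial lipopolysaccharide, rose with day (0.34 ± 0.04, adjusted p = 0.000296) and so did Ms4a7 (0.30 ± 0.06). Ms4a7 was lower in male than female heterozygotes (-0.71 ± 0.22, adjusted p = 0.0438). Cd163, the haemoglobin scavenger receptor, was at the limit in 10 samples.

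**Figure D4:**
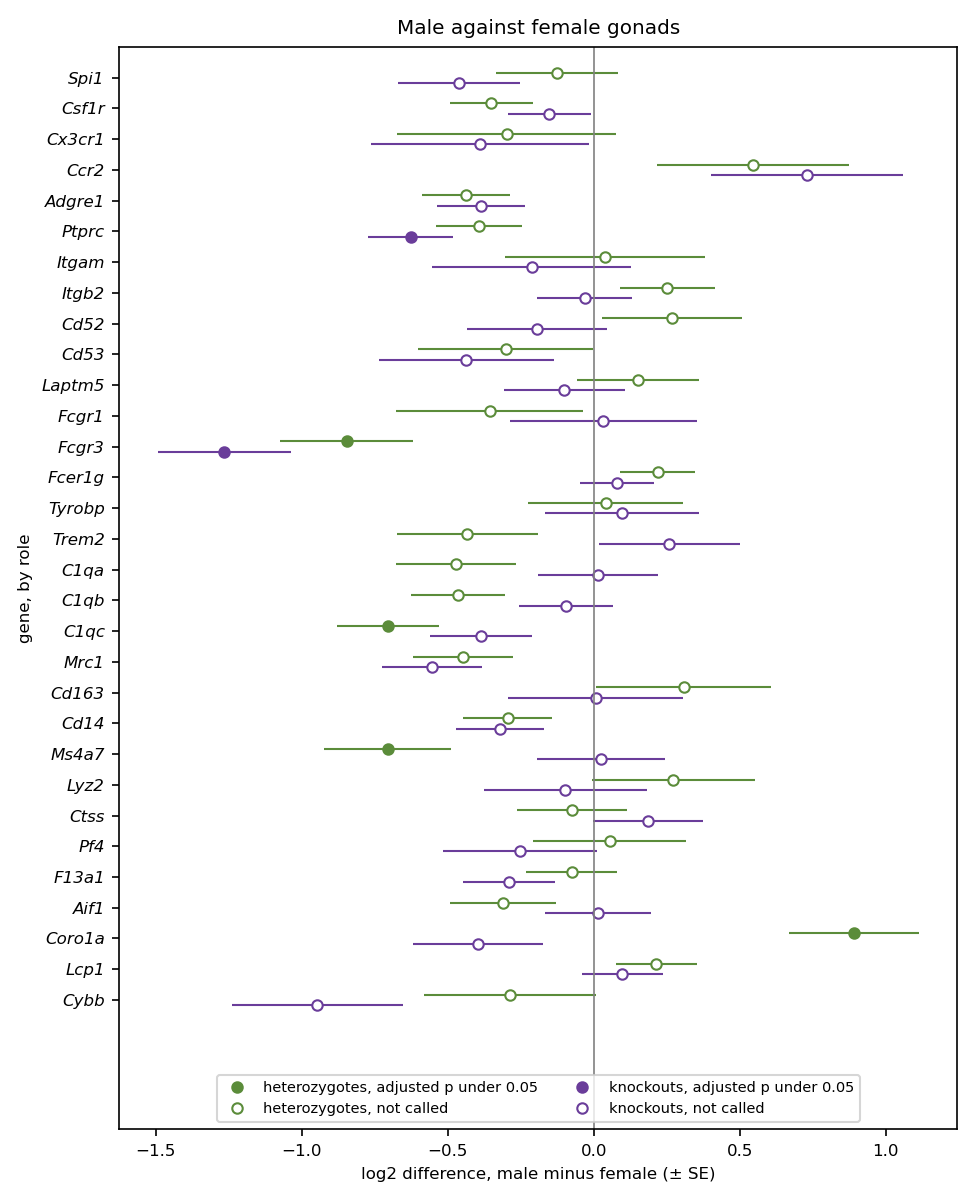
Log2 difference between male and female gonads for the 31 genes, in heterozygotes and knockouts. Points are means over 4 same-day pairs, and filled points have an adjusted p under 0.05. Bars are ± SE, from a spread per gene shared by all 16 samples. Fcgr3 is called lower in males in both genotypes, and Coro1a is called higher in male heterozygotes.

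Of the 4 secreted and lysosomal genes, 3 were higher in female knockouts and 1 in male knockouts, against 20.9% and 21.7% of all genes. Pf4, a chemokine of platelets and megakaryocytes that some macrophages also make, was 1.78, 0.871, 0.536 and 0.729 in female heterozygotes, 2.31, 2.53, 1.02 and 1.23 in female knockouts, 2.65, 1.03, 0.5 and 0.515 in male heterozygotes and 3.69, 1.98, 0.662 and 0.758 in male knockouts. It was higher in every knockout sample than in its same-day control (0.90 ± 0.18, 1.87-fold, adjusted p = 0.0079 in females, and 0.59 ± 0.18, 0.0351 in males), and fell with day (-0.63 ± 0.10, adjusted p = 0.00133). Of 8 megakaryocyte and platelet markers tested, 2 were higher in female knockouts and 1 in male knockouts. With day 5 of them fell (14.2% of all genes), among them Ppbp by -0.87 ± 0.11 and Itga2b by -0.57 ± 0.09, and Vwf rose (0.31 ± 0.07 per day). Their part in the Pf4 result was not tested. Lyz2, lysozyme, was 0.404, 1.07, 1.09 and 0.885 in female heterozygotes and 0.666, 1.71, 1.6 and 2.22 in female knockouts (0.82 ± 0.17, adjusted p = 0.00793), and rose by 0.48 ± 0.10 per day. Ctss, the protease cathepsin S, rose by 0.42 ± 0.05 per day (adjusted p = 0.000192). F13a1, a clotting factor chain found in macrophages and platelets, was higher in female knockouts (0.52 ± 0.11, adjusted p = 0.008).

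Of the 4 cytoskeletal and oxidase genes, 3 were higher in female knockouts and 2 in male knockouts, against 20.9% and 21.7% of all genes. Coro1a had the largest difference in knockout effect between the sexes among the 31 genes. Coro1a, which encodes a white-cell actin-binding protein, was 0.678, 0.662, 0.834 and 0.949 in female heterozygotes, 0.945, 1.2, 1.58 and 1.81 in female knockouts, 0.701, 1.79, 1.94 and 1.73 in male heterozygotes and 0.834, 0.938, 1.06 and 1.3 in male knockouts. The female knockouts were higher on each day (0.80 ± 0.19, adjusted p = 0.0143), while the male knockouts were lower on 3 of 4 days and not called (-0.49 ± 0.19, adjusted p = 0.0785). A second Coro1a probe gave 0.66 in females and -0.36 in males. Cybb, a subunit of the phagocyte oxidase, was 0.742, 1.41, 0.754 and 0.966 in female heterozygotes and 1.15, 2.7, 1.23 and 1.43 in female knockouts (0.71 ± 0.10, adjusted p = 0.00241), and differed by 0.05 ± 0.10 in males. Aif1, the calcium-binding protein IBA1, was called in males (0.52 ± 0.12, adjusted p = 0.0136) and gave 0.20 ± 0.12 in females. Lcp1, an actin bundler, was called in both sexes (0.47 ± 0.10 and 0.36 ± 0.10).

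**Figure D5:**
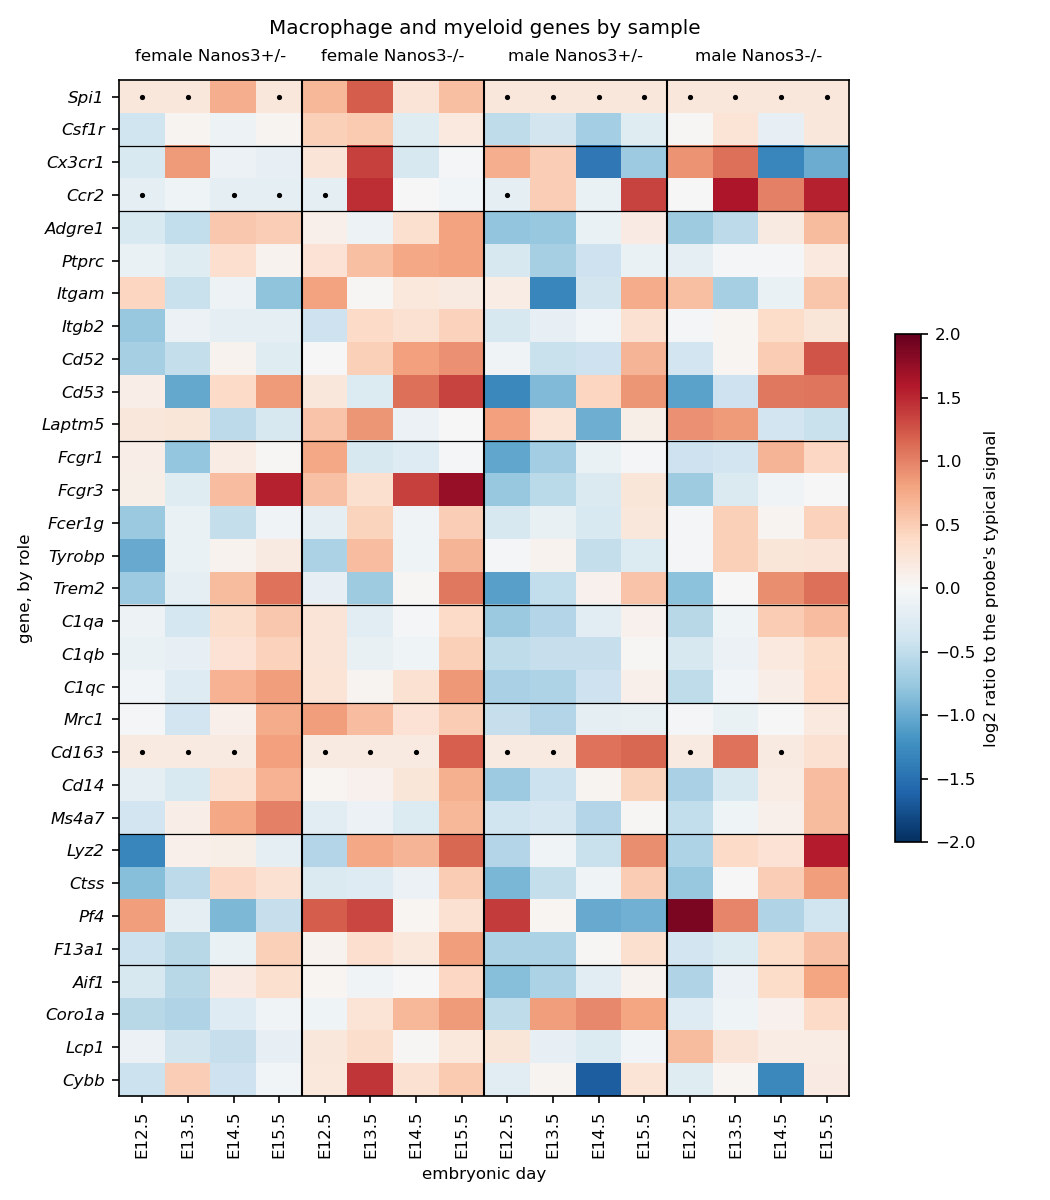
Log2 ratio of the 31 genes (rows, by role) in the 16 samples (columns, by group and embryonic day), with colours bounded at -2 and 2. Black dots mark values at the detection limit, which include Spi1 in all 8 male samples.

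Markers of other cell types were read in the same knockout comparisons, in which 20.9% of all genes were higher and 12.9% lower in females, and 21.7% and 12.6% in males. In female knockouts 12 of 13 erythroid markers were higher, with a median of 2.29 (log2), against 1 of 13 in male knockouts, median 0.69. Their mean log2 ratio was -1.24 to -0.22 in female heterozygotes and 0.65 to 2.37 in female knockouts. Of 16 markers of granulocytes, mast cells and eosinophils, 9 were higher and 1 lower in female knockouts (median 2.07) and 1 was higher in males. Of 9 monocyte genes, 6 were higher in females and 2 in males, and of 14 endothelial genes 6 and 7. Of 12 lymphocyte and NK cell markers, 3 were higher in female knockouts (median 0.06), and in male knockouts none was higher by limma and 1, Cd2, was lower (-3.55 ± 0.79, list median -0.02). The mean log2 ratio of these 12 was 0.39 to 0.84 in male heterozygotes and 0.08 to 0.34 in male knockouts, lower on all 4 days. Mean log2 ratios of Sertoli, pre-granulosa and fetal Leydig markers were higher in the knockout on every day in both sexes. Those of mesonephric markers were higher on every day in females, and in males on every day but E15.5. Sertoli markers in males averaged 1.48, 1.20, 0.91 and 0.85 in heterozygotes and 1.90, 1.84, 1.53 and 1.39 in knockouts. Pre-granulosa markers in females averaged 1.21, 0.88, 0.98 and 1.06 in heterozygotes and 1.63, 1.64, 1.72 and 1.29 in knockouts. In males the shares of erythroid and granulocyte markers called higher lay below that of all genes. The mean log2 ratios of both lists were higher in male knockouts on all 4 days. Erythroid means were 0.48, -0.58, -1.01 and -1.47 in male heterozygotes and 1.02, 0.62, -0.23 and -0.72 in male knockouts. Granulocyte means were -1.03, -0.88, -0.17 and 0.62 in male heterozygotes and -0.93, 0.01, 0.63 and 0.77 in male knockouts. Lyz2, Itgam, Itgb2, Cybb, Coro1a and Fcgr3, called higher in females alone, are also made by granulocytes. So is Ptprc, which was called in both sexes, and these are not all the listed genes that granulocytes share. The part of granulocytes and the other cell types in the knockout differences of the listed genes was not tested. Whole gonads cannot separate more cells of a type from more RNA per cell. Nor can they separate either from a larger share of that type once germ cells are lost.

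Partner genes of the macrophage programme were read from lists chosen for their function, with earlier results of these data known. Their counts stand against the same shares of all genes as the markers above. Of 11 ligands that feed or attract macrophages, 4 were higher and 1 lower in female knockouts and 2 were higher in males; Cx3cl1, the ligand of CX3CR1, rose in both (0.59 ± 0.09 and 0.74 ± 0.09). Csf1 also rose with day (0.33 ± 0.05, adjusted p = 0.000783). Il34, the other ligand of the CSF1 receptor, was lower in males (-1.66 ± 0.27 in heterozygotes and -1.75 ± 0.27 in knockouts). Of 16 engulfment receptors and bridging molecules, 7 were higher and 1 lower in female knockouts and 9 were higher in males, among them Gas6, which links dying cells to TAM receptors (0.65 ± 0.10 and 0.65 ± 0.10). Of 22 further tissue macrophage genes, 9 were higher in female knockouts, 9 were higher and 2 lower in male knockouts, and 13 rose and 1 fell with day, led by Tmem119 (0.61 ± 0.05). Of 9 antigen presentation genes, 6 rose with day (21.8% of all genes), including Cd74 (0.47 ± 0.07). In each sex 2 of these 9, Ciita and Cd40, were higher in the knockout and 1 was lower, H2-Ab1 in females (-3.14 ± 0.62) and Cd86 in males (-1.83 ± 0.56). Their mean log2 ratio rose from day to day in both male groups and in female heterozygotes, and in female knockouts it was 0.11, -0.12, -0.30 and 0.02, below the heterozygotes on 3 of 4 days.

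Of 12 myeloid transcription factors, 5 were higher and 1 lower in female knockouts and 4 higher in males, with Maf in both (0.60 ± 0.12 and 0.81 ± 0.12). Of 13 lysosomal genes, 4 were higher and 1 lower in females and 5 higher in males. Of 8 complement genes outside C1q, 4 and 3 were higher, with Cfb in both (1.33 ± 0.27 and 0.82 ± 0.27). Of 14 genes of TYROBP and Fc receptor signalling, 6 were higher and 1 lower in females and 1 higher and 2 lower in males; the phospholipase gene Plcg2 was lower in both (-2.10 ± 0.56 and -3.11 ± 0.56). Of 8 inflammatory genes, 2 were higher in females, and 1 higher and 1 lower in males.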

How the data were processed

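Whole embryonic gonads were measured on Agilent arrays with 1 dye, and the deposited values are linear ratios of a probe's signal to its typical signal, per the values themselves; the submitters' processing notes name Agilent Feature Extraction 9.5, and the scaling, centring and combining of replicates are not given in the sources used here. The planned test assumed intensities and was run on log2 of these ratios. The weakest signals sit at a detection limit that differs between samples by up to 1.08 (log2) as deposited. It was recovered with a tolerance of 2e-04. Arrays were scaled to a common 75th percentile over 28373 probes never at the limit, which moved them by -0.26 to 0.33 (log2). After scaling the limits differed by up to 1.35 (log2), and all values of a probe were then raised to its highest limit. Of 41267 probes, 93 controls were left out, and 32664 of the others have 1 gene symbol, 45 several and 8465 none. Each gene was read from the probe with the fewest values at that limit, and genes above it in at least 4 of 16 samples were kept. In each sample 1554 to 11174 probes were at the sample's own limit, and 10126 to 11635 at the common limit after raising. The number of arrays limits the precision.

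limma 3.58.1 in R 4.3.3 was fitted to all 16 samples with the embryonic day as a block within pairs, eBayes with a trend, and Benjamini-Hochberg adjustment over all genes. Pairs come from the labelled day: same-day samples deviated together from their group means, with correlations of 0.48 to 0.76 in females and 0.52 to 0.71 in males between genotypes. The limit recovery and the fit were tested on simulated data. Alternatives tried were other scalings, filters, probe rules, variance models and weights, the omission of each day, and fits without the block or with the compared groups alone. All listed genes are named, with full statistics for up to 8 called genes a comparison and for Csf1r, Adgre1, Cx3cr1, C1qa, Mrc1, Ccr2 and Ptprc. The genes and lists were chosen with earlier results of these data known.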

Additional observations from a re-analysis of the deposited data

Results flagged for a closer look

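In 10 of 122 groups of 4 samples, 1 sample stood far from the other 3, with a gap to the nearest sample, as a share of the group's range, above the 95% critical value of Dixon's test. Chance alone flags about 1 in 20 groups. The values are log2 ratios. In female heterozygotes these samples were Spi1 at E14.5 (0.73), Ccr2 at E13.5 (-0.086), Itgb2 at E12.5 (-0.75), Fcgr1 at E13.5 (-0.77) and Cd163 at E15.5 (0.83). In female knockouts they were Ccr2 at E13.5 (1.47) and Cd163 at E15.5 (1.20). In male heterozygotes they were C1qb at E15.5 (0.019) and Coro1a at E12.5 (-0.51), and in male knockouts Cd163 at E13.5 (1.09). For Spi1, for Ccr2 in female heterozygotes and for Cd163 in females, the other 3 samples were at the detection limit.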

How the results depend on the processing

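Among the single-gene results followed, none changed its direction past the threshold. Of 67 called results for single genes, 600 values under the alternatives kept the call and 280 lost it, all with the same direction. Of 67 results not called that were followed, 32 values passed the threshold and 48 changed sign without a call. These 67 are a part of all results not called, and the counts below hold further new calls.

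With the arrays as deposited, knockouts had 3 genes higher in females and 0 in males, heterozygous males had 1 lower, and knockout males had 1 lower. The rising counts were 11 in female heterozygotes, 12 in male heterozygotes and 1 in male knockouts, against 16.8%, 17.8% and 1.38% of all genes. The falling counts were 0 and 0 in the male groups (1.68% and 1.78%), and 1 gene fell over all groups (7.74%). Quantile normalization gave rising counts of 3 and 3 in female and male heterozygotes, against 4.57% and 5.64% of all genes. No filter gave 4 rising and 0 falling in male knockouts, against 2.22% and 1.4% of all genes. The fit with no replicate block, so without the pairing by day, called 0 genes for the knockout in females and 0 in males. In that fit 1.44% and 0.923% of all genes were higher in female and male knockouts. It called 0 higher and 0 lower for sex in heterozygotes, against 8.19% and 7.95% of all genes. Same-day pairing is in the main fit. With only the groups compared, 0 genes were called for sex in heterozygotes, where 6.33% of all genes were higher and 5.92% lower. In that fit 0 rose or fell in female heterozygotes and in either male group. It called 0 of all 16581 genes for a slope within any group, so it cannot show whether the listed genes rise or fall.

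Array weights gave 15 higher and 1 lower for the male knockout, 2 for the difference between the sexes, 7 lower for sex in heterozygotes, and 1 higher and 5 lower in knockouts. They gave 0 rising in female heterozygotes, and 14 rising and 1 falling in female knockouts. In male heterozygotes 16 rose and 2 fell, in male knockouts 13 and 3. For the slope difference 3 were called, against 10.5% of all genes higher and 11.6% lower. Rising shares of all genes were 3.24% and 17.6% in female heterozygotes and knockouts, and 22.4% and 16.5% in males. Falling shares were 12.3% in female knockouts, and 16.9% and 14.6% in male heterozygotes and knockouts. For the male knockout 25.4% of all genes were higher and 14.7% lower. For sex 17.8% of all genes were lower in heterozygotes and 16.4% in knockouts, where 16.5% were higher. For the difference between the sexes 3.05% were higher and 2.33% lower.

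Leaving out each day in turn gave 4 to 12 genes higher for the female knockout, against 4.38% to 19.4% of all genes. For the male knockout it gave 0 to 10 higher (4.64% to 17.9% of all genes) and 0 to 1 lower (4.82% to 13.8%). It gave 0 to 1 for the difference between the sexes (0% to 2.91% of all genes higher, 0% to 3.87% lower). For sex it gave 0 to 1 higher and 0 to 5 lower in heterozygotes (4.2% to 17.5% and 4.55% to 15%). In knockouts it gave 1 to 2 lower (4.24% to 10.5%). Rising counts were 0 to 2 in female heterozygotes, 0 to 6 in male heterozygotes and 0 to 6 in male knockouts, with 0 falling. The rising shares of all genes were 0.133% to 4.87%, 1.35% to 11.2% and 0% to 3.75%. The falling shares were 0.151% to 2.91%, 0.223% to 5.79% and 0% to 3.05%. Over all groups 2 to 18 rose and 0 to 2 fell, against 6.82% to 20.2% and 4.41% to 13.3% of all genes. The slope difference had 0 to 1 (0% to 5.06% of all genes higher, 0% to 4.72% lower). The causes were not tested. Differences of Spi1 and Cd163, at the limit in most samples, rest on few measured values, and 1 sample per group and day leaves the spread between animals unmeasured.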
